A study of Mus musculus with 16 samples.

Results

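Chromatin accessibility was examined at 10 genes of the Jak-Stat pathway in mouse hematopoietic stem and progenitor cells (HSPCs): the kinases Jak1 and Jak2, the transcription factors Stat3, Stat5a and Stat5b, and the feedback genes Socs1, Socs2, Socs3, Cish and Pim1. The peaks of 16 ATAC-Seq lists were merged into regions wherever they shared at least 1 bp, and a region belonged to a gene if it lay in the gene body or within 20 kb of either end (mm10, GENCODE M21). This gave 239 regions out of 296215 in all. The kinases and Stat genes held 159 of them and the feedback genes 80. Stat5b, Stat5a and Stat3 are neighbors on chromosome 11, so 27 regions fell in the windows of more than 1 of these genes, and each was counted once.

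ATAC-Seq marks open chromatin by the cutting of a transposase, and each list gives, for 1 library, the places where such cuts were enriched. Each of the 4 genotypes had 4 libraries. WT mice carried Ep300 fl/fl without Cre. P300KO mice carried Mx1-Cre;Ep300 fl/fl, TET2KO mice carried Ep300 fl/fl;Tet2-/-, and P300KO_TET2KO mice carried Mx1-Cre;Ep300 fl/fl;Tet2-/-. All groups were on a C57BL/6 background and received poly(I:C), an interferon inducer that switches on Mx1-Cre, as young adults. Mx1-Cre is active in blood cells and in other interferon-responsive tissues, was present only in the p300-deleted groups, and therefore cannot be told apart from the loss of p300. Tet2 was lost from the germ line and p300 only after the injections. Each library was made from HSPCs of 2 mice of the same genotype that had been sorted, frozen and thawed, so a library is a pool and not a single animal.

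Jak kinases sit on cytokine receptors and phosphorylate Stat proteins, which then pair, enter the nucleus and bind DNA at the palindrome TTCNNNGAA. In HSPCs this route carries the signals of erythropoietin, interleukins and interferons. Among the first genes that Stat5 and Stat3 switch on are Cish and the Socs genes, whose products bind the receptors or kinases and dampen the signal, and Pim1, which encodes a survival kinase. p300 is a histone acetyltransferase found at enhancers, and Tet2 oxidizes 5-methylcytosine.

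The lists were not equally deep. Replicates 1 and 2 of every genotype, whose labels also name 1 list per genotype, held 86039 to 110055 peaks, and replicates 3 and 4 held 130610 to 137335. A −log10 q of 2 or more was reached by 45.0% of peaks in WT replicate 1, by 63.2% in WT replicate 2 and by 71.3% to 97.4% elsewhere, so comparisons with WT rest partly on 2 weak lists. Strength was therefore compared only as a rank: within each list, every region received a percentile by −log10 p, with 100 for the strongest. Start regions of 7 stem and progenitor markers, Kit, Cd34, Flt3, Gata2, Meis1, Mecom and Hlf, had a peak in all 16 libraries. Of markers of other cells, Slc4a1 and Alb had none in any library and Cd3e had one in 5 libraries, whereas Pax5 and Col1a1 had one in all 16. The part of other cells in the values below was not tested. The start regions of Ep300 and Tet2 had a peak in all 16 libraries, which does not check either deletion.

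The Stat palindrome set the feedback genes apart from the kinases and Stat genes in sequence. Of the 28 feedback-gene regions with a peak in all 16 libraries, 11 (39.3%) held TTCNNNGAA within 150 bp of the strongest summit. Of the 31 such regions of the kinases and Stat genes, 1 (3.23%) did, and of all 39310 regions with a peak in every library, 2997 (7.62%) did. Outside promoters, taken as within 3 kb of any protein-coding start, the counts were 7 of 17 for feedback genes, 1 of 20 for kinases and Stat genes and 2067 of 23271 (8.88%) in all. These are counts of letters in the reference and not of bound protein, and no test was run over them. Every site found is given with 10 bases on either side, because these sites are where the pathway's own transcription factors could act on its inhibitors. Capitals mark the palindrome, the strand is plus, and distances are from the middle of the region to the nearest annotated start of the gene.
Socs1, region 16.6 kb downstream of the start, chr16:10768929-10768957: gcaggcagagTTCCTGGAAagcaagcggg
Socs2, region 0.13 kb downstream of the start, chr10:95416894-95416922: ggaggccgctTTCCAGGAActttccagga
Socs2, region 0.884 kb upstream of the start, chr10:95417926-95417954: ataaccatttTTCTTTGAAatactgttct
Socs3, region 9.08 kb downstream of the start, chr11:117960101-117960129: cagcggcggcTTCTGGGAAgccaccggag
Socs3, region 0.334 kb upstream of the start, chr11:117969229-117969257: cgccccccgaTTCCTGGAActgcccggcc
Socs3, region 7.05 kb upstream of the start, chr11:117976215-117976243: agctgggcagTTCTGGGAAgccaggctgc
Cish, region 0.264 kb upstream of the start, chr9:107296649-107296677: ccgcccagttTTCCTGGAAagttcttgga
Cish, region 0.264 kb upstream of the start, chr9:107296660-107296688: tcctggaaagTTCTTGGAAatctgtcaaa
Cish, region 9.28 kb downstream of the start, chr9:107306464-107306492: ctcagcctctTTCTGAGAAgcattgaact
Cish, region 16.2 kb downstream of the start, chr9:107313006-107313034: gcacagtcagTTCCCAGAAatgaaggtac
Pim1, region 12.3 kb upstream of the start, chr17:29478371-29478399: tcttttctgcTTCCCAGAAttttgggcag
Pim1, region 7.54 kb downstream of the start, chr17:29500914-29500942: gctccgctggTTCTTGGAAaccctcacca
Stat3, region 17.6 kb upstream of the start, chr11:100957463-100957491: aaaacaaggcTTCCCGGAAggcagttcct

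The sites at Cish lay 82 and 93 bp from the summit of its start region and followed each other with a shift of 11 bp (chr9:107296649-107296677 and chr9:107296660-107296688). Socs3, an inhibitor of signaling through the gp130 receptor, had sites in 3 of its 10 regions found in every library. Both such regions of Socs2, which restrains growth hormone signaling, held a site, as did 1 of 3 at Socs1, 3 of 6 at Cish and 2 of 7 at Pim1. Among regions of the kinases and Stat genes with a peak in every library, the only site was in the Stat3 window but in an exon of Cavin1, a gene of caveolae. The RefSeq promoters of GRCm38.p6 (250 bases before to 50 after the start) were searched as well: 2 of the 5 feedback-gene entries and 0 of the 7 entries of kinases and Stat genes held the palindrome, against 8.30% of all 32851 promoters. Cish held 2 copies, as did 0.457% of all promoters. Socs2 had no entry. The Socs3 promoter is shown from 250 to 86 bases before the RefSeq start for its copy of the palindrome, which lies apart from the site near the summit.
Socs3 promoter, chr11:117969452-117969616, minus strand: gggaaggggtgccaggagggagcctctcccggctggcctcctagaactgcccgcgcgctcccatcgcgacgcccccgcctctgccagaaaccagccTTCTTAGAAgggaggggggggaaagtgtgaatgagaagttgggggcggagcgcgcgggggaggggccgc

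**Figure D1:**
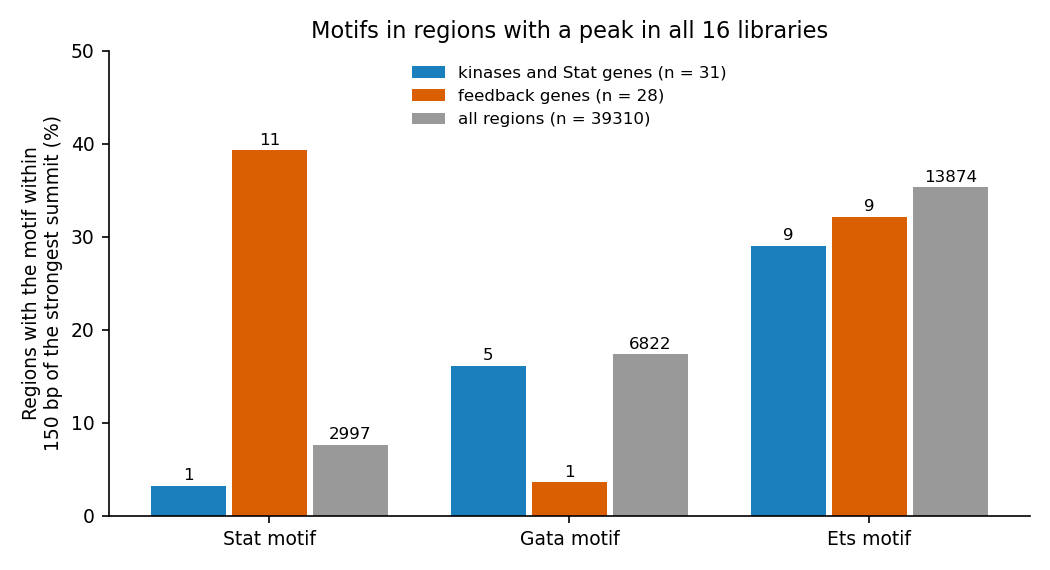
Percent of regions with a peak in all 16 libraries that held each motif within 150 bp of the strongest summit (y axis), for kinases and Stat genes, feedback genes and all regions; the number on each bar is the count of regions. The Stat motif was found in 11 of 28 feedback-gene regions and 1 of 31 kinase and Stat regions, the Gata motif in 1 of 28 and 5 of 31, and the shares for the Ets motif lay between 29.0% and 35.3%.

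Motifs of other blood transcription factors were searched in the same windows. GGAAGT, the core bound by Ets factors such as PU.1, was found in 9 of 28 feedback-gene regions, 9 of 31 kinase and Stat regions and 35.3% of all regions. AGATAA or TGATAA, bound by Gata factors, was found in 1 of 28 (3.57%) and 5 of 31 (16.1%), respectively, against 17.4% of all regions, so here the feedback genes had the lower share. Motifs were searched on both strands. Feedback-gene regions with and without the Stat palindrome had similar ranks, with median percentiles over all libraries of 85.2 (n = 11) and 85.0 (n = 17).

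The 2 classes also differed in how their open regions were laid out. The feedback genes are short, with a median gene length of 5.36 kb against 61.3 kb for the kinases and Stat genes and 17.4 kb for all 21911 protein-coding genes, so the 20-kb flanks make up most of their windows. Of the feedback-gene regions, 52.5% were intergenic and 11.2% intronic, and of the kinase and Stat regions, 8.81% and 60.4%. A peak in all 16 libraries was found for 28 of 80 (35.0%) feedback-gene regions, 31 of 159 (19.5%) kinase and Stat regions and 13.3% of all regions. Outside promoters, the counts were 17 of 54 and 20 of 138, against 9.15% of all regions there. A peak in a single library was found for 16 feedback-gene regions and 55 kinase and Stat regions.

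Socs3 had the most constant window of the 10 genes. Of its 15 regions, 10 (66.7%) had a peak in every library and 0 were found in a single library. Among all protein-coding genes, 1.74% had a share this high or higher. The corresponding counts were 6 of 14 at Cish and 7 of 18 at Pim1, but 3 of 16 at Socs1 and 2 of 17 at Socs2, so the high share was not common to the feedback genes. Among the kinases and Stat genes the share ran from 4 of 25 at Jak2 to 9 of 33 at Stat5b. Several of these constant regions were the promoters of neighbors: 3 of the 6 at Cish lay within 3 kb of starts of Mapkapk3, 1 at Socs3 near the start of Pgs1, 1 at Jak2 at the start of Insl6, and 2 at Stat5b near the starts of Hcrt and Ghdc.

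**Figure D2:**
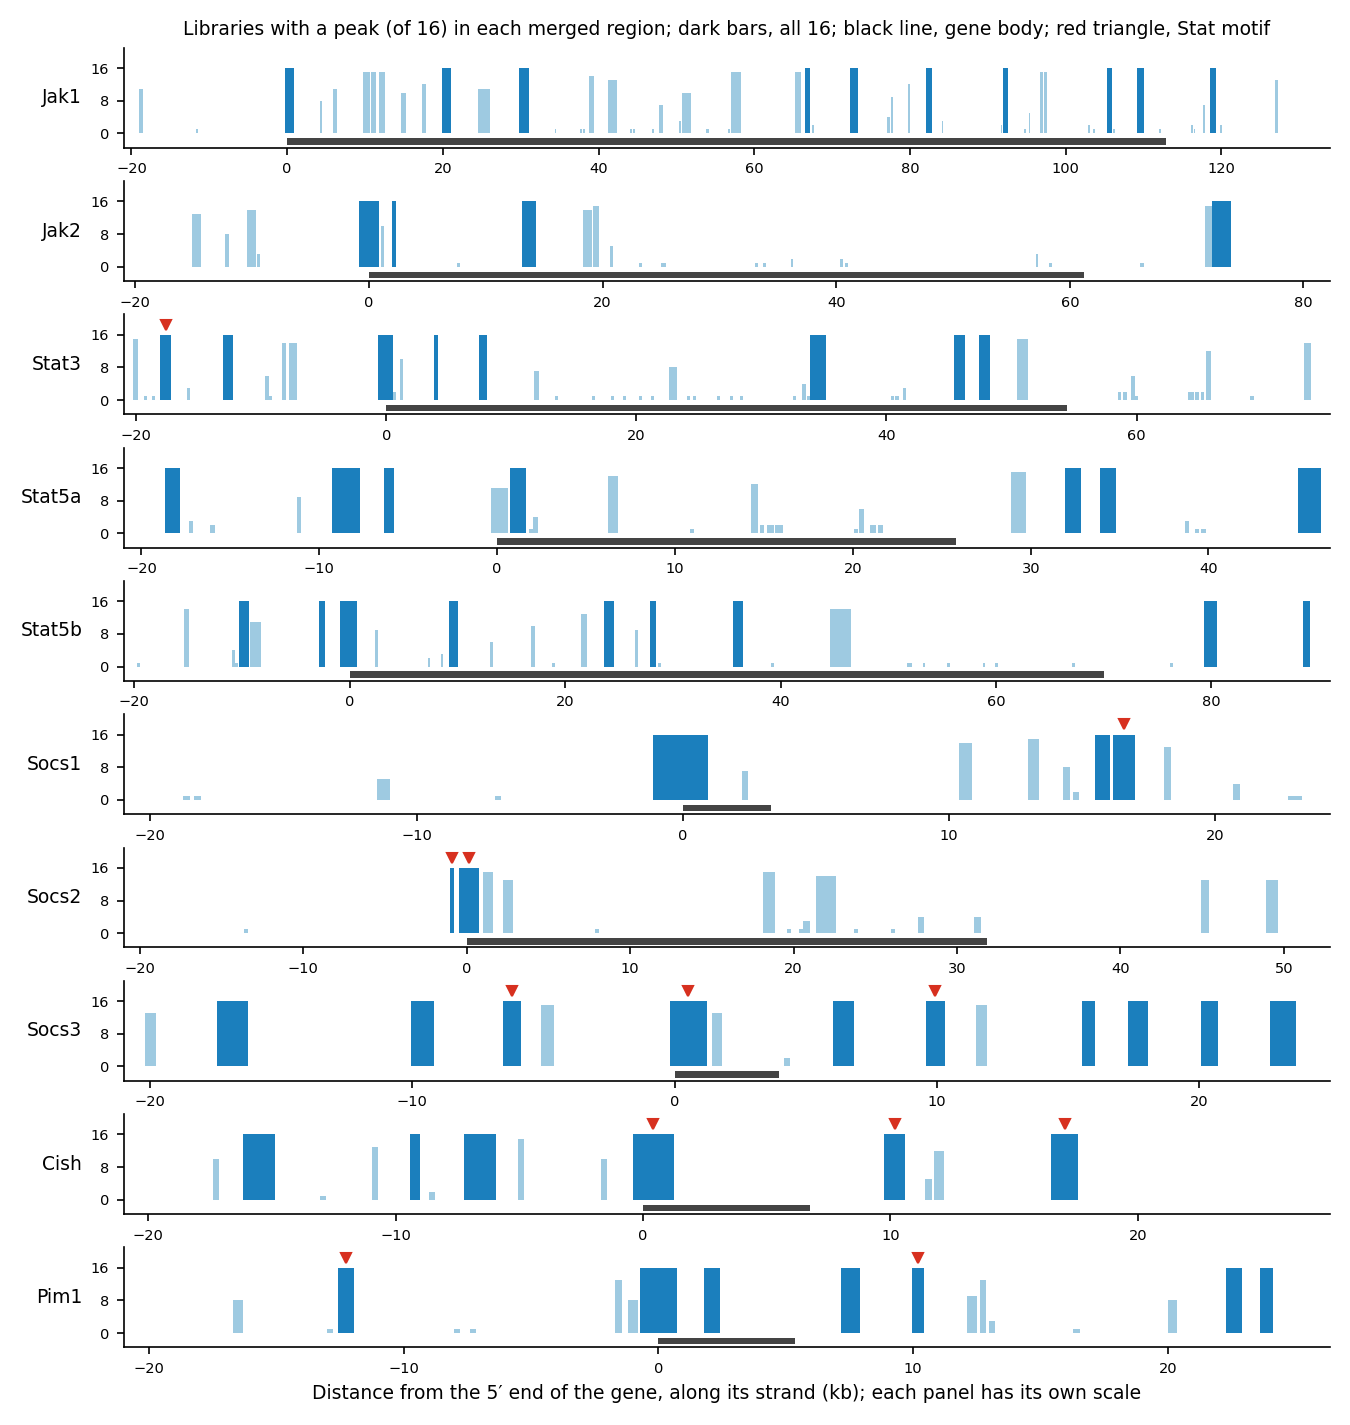
Merged regions in the window of each gene (x axis, distance in kb from the 5′ end of the gene along its strand) and the number of the 16 libraries with a peak there (y axis). Dark bars had a peak in all 16 libraries, such as 10 of 15 regions at Socs3 and 10 of 55 at Jak1; the black line is the gene body and red triangles mark regions with a Stat palindrome near the summit.

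Every one of the 10 genes had an open start region in all 16 libraries, as did 61.7% of protein-coding genes. The order of mean percentiles over the 16 libraries was Stat3 (99.0 ± 0.61, SD), Stat5a (98.8 ± 0.61), Jak1 (98.2 ± 0.52), Socs1 (96.6 ± 0.78), Pim1 (96.2 ± 1.88), Cish (93.8 ± 1.45), Socs3 (93.5 ± 1.70), Jak2 (92.5 ± 2.17), Socs2 (87.1 ± 2.11) and Stat5b (77.8 ± 4.30). Neighbors in this order differed by more than either SD only between Jak1 and Socs1, Pim1 and Cish, Jak2 and Socs2, and Socs2 and Stat5b. The median was 98.2 for the kinases and Stat genes, 93.8 for the feedback genes and 93.6 for the 13528 protein-coding genes whose start region had a peak in all libraries. The order depended on the measure: by fold enrichment in place of −log10 p, Jak1 came first, Cish moved from place 6 to 3 and Socs1 from 4 to 8.

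No start region was called in any comparison, with adjusted p (limma, described with the tests of rank) of 0.363 and above. The Stat3 start region (chr11:100938996-100940170) lay between 97.6 and 99.7 in all 16 libraries. Stat5a (chr11:100860064-100860978), which sits next to Stat5b and encodes a closely related protein, lay between 97.7 and 99.6. For Stat5b (chr11:100850061-100851656) the percentiles were 78.4, 83.2, 78.9 and 84.6 in WT, 75.1, 69.9, 81.6 and 78.5 in P300KO, 71.4, 73.2, 79.3 and 78.4 in TET2KO, and 74.5, 76.9, 76.5 and 84.0 in P300KO_TET2KO. All genotypes overlapped, and the start region of Stat5b was the weakest and most variable of the 10 start regions. WT values had chosen it among the regions at annotated Stat5b starts. Another (chr11:100822280-100822890), 0.057 kb upstream of an annotated start, had a higher mean percentile of 82.6 over the 16 libraries. A stronger region of Stat5b (chr11:100814167-100815177) lay in an intron, 7.86 kb downstream of an annotated start, with a mean percentile of 88.5 ± 2.86 (SD, n = 16).

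At Cish, an early target of Stat5, the start region (chr9:107295613-107297280) had percentiles of 94.7, 91.9, 92.9 and 93.3 in WT and 92.5, 92.4, 95.6 and 93.7 in P300KO. In TET2KO they were 95.4, 90.5, 93.3 and 94.8, and in P300KO_TET2KO 94.8, 95.1, 94.9 and 94.9. The P300KO_TET2KO values lay inside the range of the TET2KO values and just above all 4 WT values, a pair of groups that differ in both deletions and were not tested against each other. At Socs3 (chr11:117968829-117970212) the percentiles were 94.1, 90.7, 90.9 and 94.0 in WT, 93.1, 91.4, 94.0 and 92.2 in P300KO, 93.6, 92.3, 96.7 and 95.2 in TET2KO, and 93.8, 94.2, 95.3 and 95.3 in P300KO_TET2KO. The means were higher in both Tet2-null groups, yet the groups overlapped. The Jak2 start region (chr19:29250982-29252691), which belongs to the kinase mutated in many myeloproliferative neoplasms, lay between 88.2 and 95.5, and that of Socs1 (chr16:10784605-10786651), an inhibitor of interferon signaling, at a median of 96.5 and at most at 98.9.

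**Figure D3:**
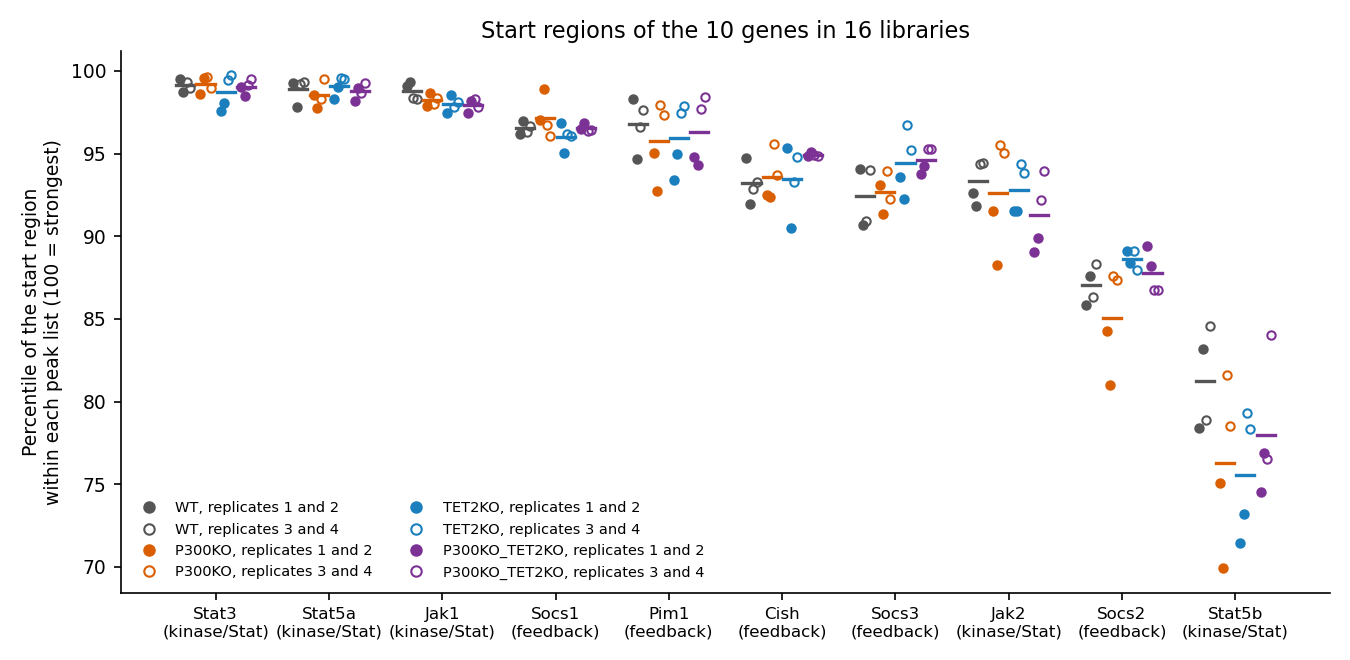
Percentile of the start region of each gene within each peak list (y axis, which does not start at 0), by genotype; filled points are replicates 1 and 2, open points replicates 3 and 4, and bars the means of 4 libraries. Stat3, Stat5a and Jak1 lay above 97 in every library, Stat5b lay between 69.9 and 84.6, and the groups overlapped at every gene in each of the 4 comparisons tested.

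Away from starts, the leading regions of Socs3 and Pim1 ranked as high as many promoters. The leading region was taken as the one outside 3 kb of any start with the highest mean percentile in WT, where a library without a peak counted as the lowest possible. It was at 94.99 ± 1.20 (SD over libraries) for Socs3 (chr11:117963223-117964004, 5.57 kb downstream of the start) and at 94.0 ± 1.61 for Pim1 (chr17:29497912-29498661, 4.88 kb downstream). For Cish it was at 89.9 ± 2.42 (chr9:107312531-107313618, 16.2 kb downstream, with 1 Stat palindrome), for Socs1 at 76.2 ± 5.17 (chr16:10769507-10770037) and for Socs2 at 51.8 ± 12.6 in 15 libraries (chr10:95398340-95399066). Among the kinases and Stat genes, Stat3 and Stat5a shared a leading region in an exon of Stat3 (chr11:100893272-100894150, 89.4 ± 3.43), Jak1 had one in an intron (chr4:101172651-101173328, 86.5 ± 8.62) and Jak2 a weak one (chr19:29264895-29266129, 40.6 ± 13.9). The 2 classes overlapped in these values.

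At Jak1, the number of open regions in the window separated the longer from the shorter lists. Here the counts were 18, 19, 34 and 33 in WT, 26, 26, 35 and 33 in P300KO, 26, 24, 36 and 35 in TET2KO, and 26, 24, 36 and 32 in P300KO_TET2KO. The longer lists of replicates 3 and 4 gave 32 to 36 regions and those of replicates 1 and 2 gave 18 to 26, and the genotypes overlapped across these sets. Within each set, every TET2KO count lay above every WT count, by a mean of 6.5 regions in replicates 1 and 2 and 2 in replicates 3 and 4. The exact permutation test (2-sided, unadjusted) gave p = 0.486 over 70 regroupings. Within the sets it gave 0.0556, the smallest that 36 regroupings allow. How many of all genes part in this way was not counted. At Socs1 the counts also separated by these sets, with 5 to 7 regions in replicates 1 and 2 and 8 to 9 in replicates 3 and 4. Over all libraries Socs2 held 5 to 11 regions, Cish 6 to 12, Pim1 9 to 13 and Socs3 12 to 15.

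Stat3 was the only gene whose counts did not overlap in any of the 4 comparisons. It held 12, 15, 17 and 18 regions in WT and 19, 19, 21 and 20 in P300KO, a mean of 15.5 ± 2.65 against 19.8 ± 0.957 (SD, n = 4 each; exact permutation test, 2-sided, unadjusted, p = 0.0286, the smallest p that 70 regroupings allow). Every P300KO library held more than every WT library. The counts were 15, 15, 23 and 15 in TET2KO and 17, 22, 23 and 20 in P300KO_TET2KO, means of 17 ± 4 and 20.5 ± 2.65, which overlapped through TET2KO replicate 3. Counts that did not overlap were found for 1 of 10 genes in P300KO against WT, where 0.288% of all protein-coding genes did so, and for 0 of 10 in P300KO_TET2KO against TET2KO (0.49% of all genes), TET2KO against WT (0.379%) and P300KO_TET2KO against P300KO (0.569%). Permuted within the sets of replicates 1 and 2 and of replicates 3 and 4, p was 0.0556, and the counts overlapped with windows of 5 kb, with peaks of −log10 q of at least 2, or among the strongest 50000 peaks of each list. The differences from WT were 5.5 regions in replicates 1 and 2, where the WT lists were weak, and 3.0 in replicates 3 and 4.

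**Figure D4:**
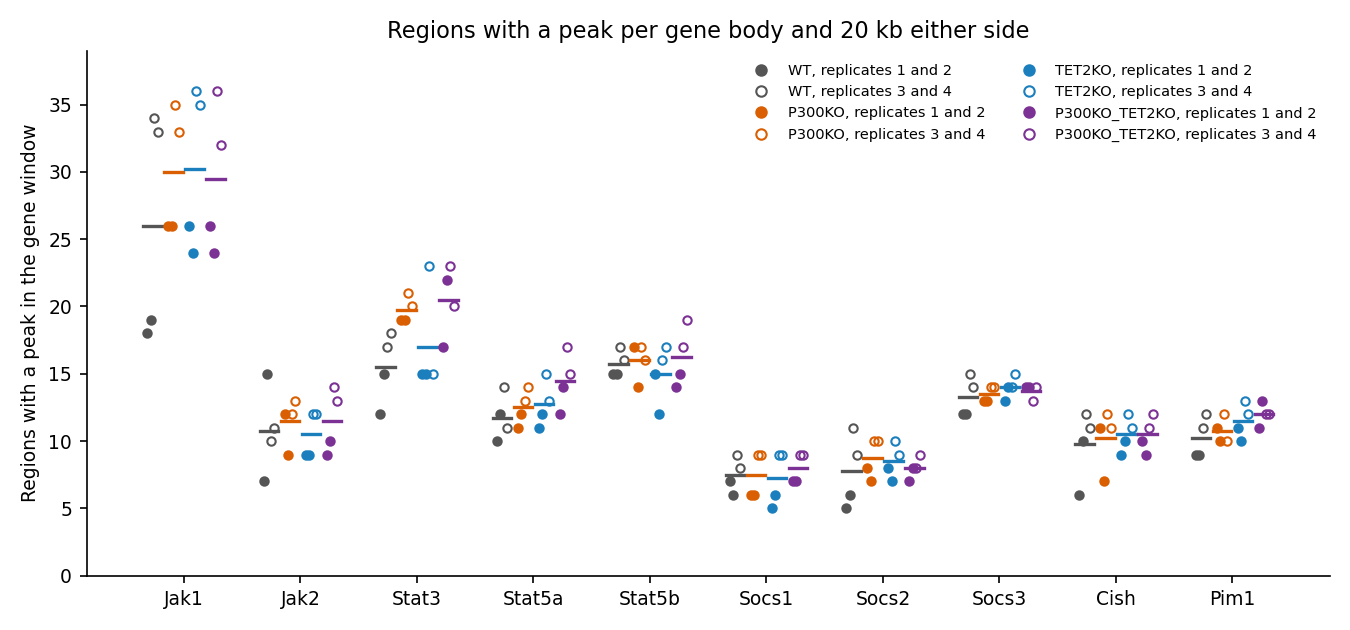
Number of merged regions with a peak in the window of each gene (y axis, counts) in each library, by genotype; filled points are replicates 1 and 2, open points replicates 3 and 4, and bars the means of 4 libraries. At Stat3 the 4 P300KO libraries lay between 19 and 21, above the 4 WT libraries at 12 to 18, and at Jak1 the counts separated by replicate set. Within each set, every Jak1 count of TET2KO lay above every count of WT.

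No region of the 10 genes changed its rank with genotype past the threshold. The 59 regions with a peak in all 16 libraries were tested with limma on ranks by −log10 p, in 1 fit over all 39310 such regions, with genotype and replicate set as terms and Benjamini-Hochberg adjustment over all regions. For this fit the ranks were retaken in each library among the 39310 regions alone and turned into normal scores, so a difference of 1 is 1 SD of these scores and cannot be read off the printed percentiles, which rank all regions of a list. In P300KO_TET2KO against TET2KO, 0 of 59 were called, where 0.132% of all regions were. The counts were 0 of 59 in P300KO against WT (0.506% of all regions), 0 of 59 in TET2KO against WT (0.00509%) and 0 of 59 in P300KO_TET2KO against P300KO (0.15%). An unadjusted p under 0.05 was found for 3, 10, 7 and 0 of the 59 regions in these comparisons, that is 5.08%, 16.9%, 11.9% and 0%, against 8.45%, 15.1%, 10.3% and 9.27% of all regions. The interaction of the 2 deletions was called at 0 of 59 and 0 of 39310 regions, with unadjusted p under 0.05 at 2 and 2047.

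Median differences were near 0 in both classes. For loss of p300 in Tet2-null cells the median was 0.0718 over 31 kinase and Stat regions and 0.0504 over 28 feedback-gene regions, beside 0.00463 over all regions. In P300KO against WT the medians were 0.0310, 0.0352 and 0.00845. In TET2KO against WT they were −0.00223, 0.0573 and 0.00667, and in P300KO_TET2KO against P300KO 0.00902, −0.0380 and 0.00573.

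On loss of p300 in Tet2-null cells, the 3 regions with the lowest p had lower ranks in P300KO_TET2KO, at adjusted p (limma) of 0.337 and above. The first lies between Stat5b and Stat5a, 6.07 kb upstream of the Stat5a start (chr11:100853017-100853543), with percentiles of 62.5, 57.1, 73.2 and 71.4 in TET2KO and 54.9, 47.4, 64.4 and 63.3 in P300KO_TET2KO. The difference was −0.466 (SE 0.151, adjusted p = 0.337 by limma). Within replicates 1 and 2 and within replicates 3 and 4, the P300KO_TET2KO values lay below the TET2KO values, though the groups overlapped across these sets. The second lies 16.8 kb downstream of Socs3 (chr11:117952009-117952758), at 77.9, 81.2, 88.2 and 87.4 in TET2KO and 71.7, 75.3, 80.8 and 82.8 in P300KO_TET2KO, with a difference of −0.412 (SE 0.135, adjusted p = 0.346 by limma). Again the values were lower within each set. In WT this Socs3 region was at 86.3, 79.2, 90.0 and 89.3 and in P300KO at 77.5, 79.2, 83.6 and 79.6.

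The third was the leading distal region of Socs1, 15.8 kb downstream of the start, with a difference of −0.307 (SE 0.134, adjusted p = 0.552 by limma). Its percentiles were 80.1, 80.6, 82.3 and 80.9 in WT and 74.5, 72.9, 75.6 and 72.1 in P300KO, without overlap (−0.372, SE 0.134, adjusted p = 0.211 by limma). WT values had chosen this region as the leading one, and how many of all regions part in this way was not counted. In TET2KO its percentiles were 76.0, 69.3, 82.8 and 81.4 and in P300KO_TET2KO 64.7, 71.4, 77.4 and 77.2, with overlap. The adjacent Socs1 region (chr16:10768550-10769372) had a difference of the opposite sign in P300KO against WT, with means of 78.6 in WT and 84.6 in P300KO (0.449, SE 0.158, adjusted p = 0.203 by limma). None of the 3 regions with the lowest p held a Stat palindrome within 150 bp of the summit.

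In P300KO against WT, the lowest p belonged to regions with higher ranks in P300KO. A promoter of Mapkapk3, a stress kinase gene next to Cish, lies in the Cish window (chr9:107279866-107281157) and was at 83.4, 89.7, 83.0 and 81.5 in WT and at 90.8, 87.4, 91.0 and 90.3 in P300KO, a difference of 0.454 (SE 0.111, adjusted p = 0.0811 by limma). Only WT replicate 2, a weak list, reached the P300KO range. Over all alternatives the adjusted p ran from 0.0393 without that library to 0.656 in replicates 1 and 2 alone, and by fold enrichment the difference was 0.211 (adjusted p = 0.573). A region in an intron of Jak1 (chr4:101198172-101198818), 66.8 kb downstream of the start, was at 69.2, 80.8, 79.8 and 81.9 in WT and at 81.0, 79.8, 88.9 and 88.6 in P300KO. The groups overlapped, and the difference was 0.480 (SE 0.126, adjusted p = 0.101 by limma, with a range over alternatives from 0.0428 without WT replicate 2 to 0.577 in replicates 1 and 2 alone).

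A second Jak1 intron region (chr4:101155197-101156094, 109.6 kb downstream) was at 8.2, 66.7, 75.1 and 82.2 in WT and 81.2, 73.6, 85.5 and 85.1 in P300KO. The difference of 0.976 (SE 0.268, adjusted p = 0.115 by limma) was 0.579 (adjusted p = 0.0551 by limma) without WT replicate 1, the weakest list. Over all alternatives its adjusted p ran from 0.0330 with percentiles among the 39310 regions in place of normal scores to 0.342 in replicates 1 and 2 alone.

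**Figure D5:**
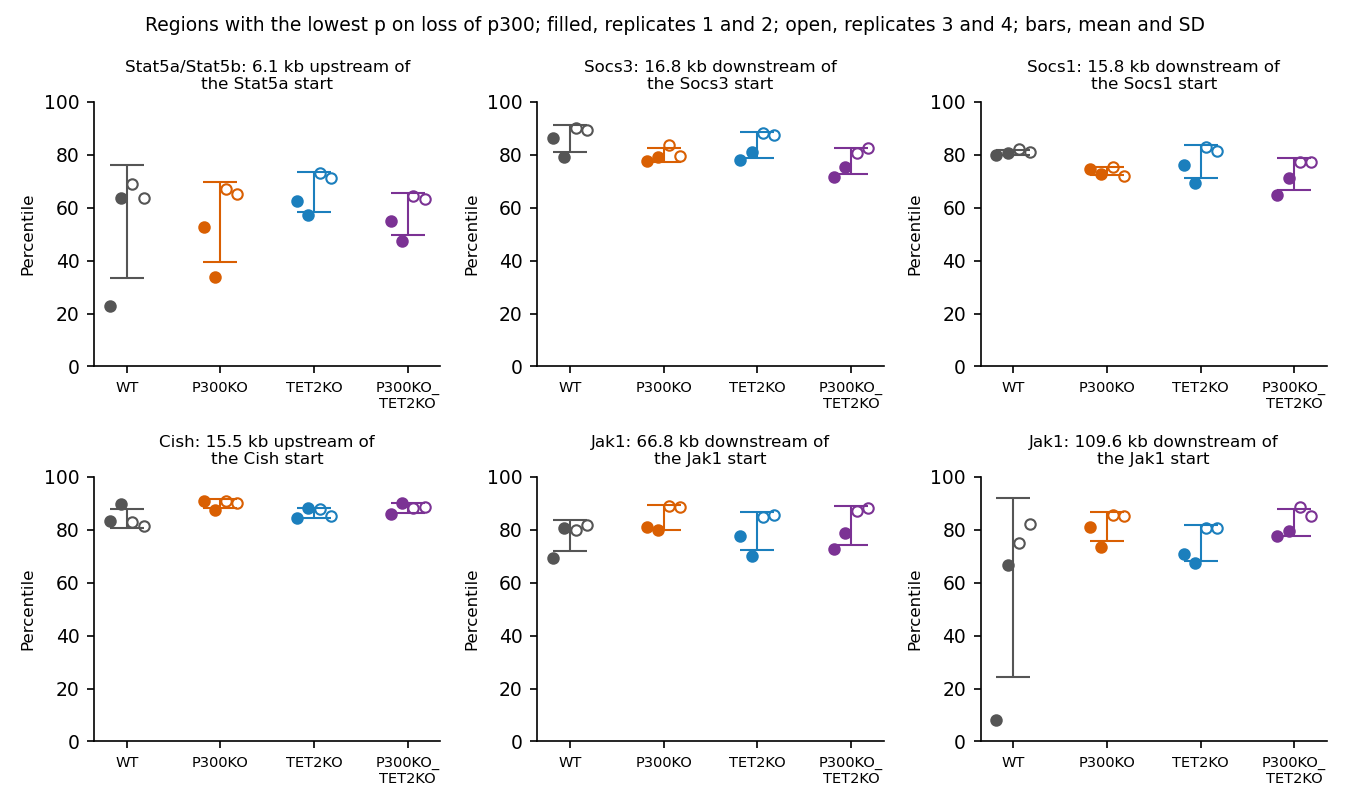
Percentile within each list (y axis) of the 3 regions with the lowest p in P300KO_TET2KO against TET2KO (top) and in P300KO against WT (bottom), by genotype (x axis); filled points are replicates 1 and 2, open points replicates 3 and 4, and bars the mean and SD of 4 libraries. The Socs1 region, which WT values had chosen as the leading one, lay at 80.1 to 82.3 in WT and 72.1 to 75.6 in P300KO and was not called. The single WT points at 8.2 and 22.7 are replicate 1.

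For loss of Tet2 alone, the lowest p belonged to the region between Stat5b and Stat5a (0.384, SE 0.151, adjusted p = 0.428 by limma), the Stat5b start region (−0.284, SE 0.114, adjusted p = 0.435) and the Socs3 start region (0.270, SE 0.111, adjusted p = 0.439). In the first of these, WT replicate 1 was at 22.7 and the other WT libraries at 63.6 to 68.9, and the difference was 0.244 without WT replicate 1. WT values had chosen the Stat5b start region over another at an annotated Stat5b start (chr11:100822280-100822890), which bears on its comparison with WT. For loss of Tet2 in p300-deleted cells the lowest p belonged to the start regions of Jak2 (−0.165, SE 0.0821), Socs3 (0.208, SE 0.111) and Socs2 (0.157, SE 0.0860), with adjusted p of 0.568, 0.605 and 0.622 by limma.

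Presence gave a similar picture. No region of the 10 genes was gained or lost by the rule of a peak in 4 of 4 libraries of a genotype and 0 of 4 of the other. This held for 0 of 183 regions in P300KO_TET2KO against TET2KO (0.114% of all regions), 0 of 213 in P300KO against WT (0.0276%), 0 of 204 in TET2KO against WT (0.0255%) and 0 of 191 in P300KO_TET2KO against P300KO (0.146%). With at least 3 of 4 against at most 1 of 4, 7 regions were counted in P300KO_TET2KO against TET2KO (3.83%, against 2.68% of all regions), 4 in P300KO against WT (1.88%, against 1.56%), 2 in TET2KO against WT (0.980%, against 1.44%) and 4 in P300KO_TET2KO against P300KO (2.09%, against 2.58%). These shares were near those of all regions.

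A few weak regions followed 1 of the deletions across both backgrounds. The P300KO_TET2KO against TET2KO and P300KO against WT comparisons share no library, and only a region with a peak in 6 to 10 libraries can meet the looser rule in the same direction in both. Of 25 such regions at the 10 genes, 3 (12%) did so, as did 391 of 33368 (1.17%) of all such regions. A region in the first intron of Stat3 (chr11:100938231-100938448), 1.04 kb downstream of the start, had a peak in 4 of 4 P300KO and 4 of 4 P300KO_TET2KO libraries but in 1 of 4 WT and 1 of 4 TET2KO libraries. Its percentiles were 64.2, 68.7, 55.4 and 47.7 in P300KO and 54.5, 56.0, 41.9 and 49.8 in P300KO_TET2KO. It was at 38.8 in WT replicate 4 and at 51.7 in TET2KO replicate 3. A region 14.4 kb downstream of Socs1 (chr16:10771011-10771239) had a peak in 3 of 4 P300KO and 4 of 4 P300KO_TET2KO libraries but in 0 of 4 WT and 1 of 4 TET2KO libraries, at percentiles of 13.5 to 40.8 where present. The third, 17.5 kb downstream of Pim1 (chr17:29510743-29511115), went the other way, with a peak in 3 of 4 WT, 3 of 4 TET2KO, 1 of 4 P300KO and 1 of 4 P300KO_TET2KO libraries.

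In both comparisons of Tet2 loss, which also share no library, 1 of the 25 regions (4%) met the looser rule in the same direction, against 370 of 33368 (1.11%) of all such regions. This region, in an intron of Jak2 (chr19:29252879-29253138), 0.567 kb downstream of a start, had a peak in 4 of 4 TET2KO and 4 of 4 P300KO_TET2KO libraries and in 1 of 4 WT and 1 of 4 P300KO libraries. Both exceptions were replicate 1, at percentiles of 48.6 and 43.2, against 12.9 to 46.8 in the 8 Tet2-null libraries. A region 1.57 kb upstream of Pim1 (chr17:29489054-29489310) had a peak in 1 of 4 WT libraries, replicate 4 at 24.7, and in 4 of 4 libraries of each other genotype, at 32.8 to 62.7. The WT libraries without a peak there included the 2 weak lists and replicate 3. At the Stat3, Socs1 and Stat3 intron (chr11:100927317-100927692) regions, TET2KO replicate 3 was the only TET2KO library with a peak.

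The sequences around the summits of the Stat3, Socs1 and Jak2 regions are shown because these were the most regular patterns of presence. Capitals mark the Stat, Gata and Ets motifs on either strand. The Jak2 region held 1 Stat palindrome, the Socs1 region 1 Gata and 1 Ets motif, and the Stat3 region none of the 3.
Stat3 region, chr11:100938248-100938447, plus strand: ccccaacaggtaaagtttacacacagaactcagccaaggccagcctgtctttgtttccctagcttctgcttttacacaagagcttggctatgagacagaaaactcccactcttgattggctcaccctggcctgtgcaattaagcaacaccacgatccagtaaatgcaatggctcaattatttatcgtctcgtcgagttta
Socs1 region, chr16:10771008-10771207, plus strand: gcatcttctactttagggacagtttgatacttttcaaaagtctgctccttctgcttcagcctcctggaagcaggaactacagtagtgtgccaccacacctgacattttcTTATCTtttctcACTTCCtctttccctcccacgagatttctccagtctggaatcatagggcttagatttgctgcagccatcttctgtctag
Jak2 region, chr19:29252923-29253122, plus strand: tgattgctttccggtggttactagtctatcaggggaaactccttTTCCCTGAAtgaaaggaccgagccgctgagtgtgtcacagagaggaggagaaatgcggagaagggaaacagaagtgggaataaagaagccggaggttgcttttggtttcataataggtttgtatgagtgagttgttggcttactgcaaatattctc

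The wider pathway was checked through 29 further genes: Jak3, Tyk2 and other Stats, inhibitors such as the Pias and Ptpn genes, Sh2b3 and Cbl, and further Stat5 targets. They held 668 regions, of which 160 were tested. None were gained or lost by the 4 of 4 rule. In P300KO against WT, 2 of the 160 regions fell and 0 rose, where 0.506% of all regions were called. Both lay at D-type cyclins, which drive entry into the cell cycle. In the other 3 comparisons 0 of 160 were called, against 0.132% of all regions in P300KO_TET2KO against TET2KO, 0.00509% in TET2KO against WT and 0.15% in P300KO_TET2KO against P300KO. The 6 kinases and Stats (37 regions tested) and the 15 inhibitors (72 regions tested) had no call in any comparison.

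A region 2.71 kb upstream of Ccnd2 (chr6:127154535-127155261) was at 75.5, 81.5, 78.4 and 78.8 in WT and 68.7, 53.0, 67.6 and 60.6 in P300KO, a difference of −0.769 (SE 0.127, adjusted p = 0.0229 by limma). The groups did not overlap. The call was lost in 7 of 16 alternatives, among them rank by fold enrichment (adjusted p = 0.143 by limma), replicates 1 and 2 alone (0.390) and the fits without P300KO replicate 3 (0.0532), P300KO replicate 4 (0.0624) or WT replicate 3 (0.0639). In TET2KO it was at 74.4, 77.7, 78.8 and 77.5 and in P300KO_TET2KO at 75.4, 65.8, 74.2 and 68.4, a difference of −0.372 (SE 0.127, adjusted p = 0.369 by limma). A region in an intron of Ccnd3 (chr17:47541812-47543710) was at 81.2, 90.1, 91.5 and 90.2 in WT and 71.8, 71.1, 80.1 and 75.9 in P300KO, a difference of −0.846 (SE 0.152, adjusted p = 0.0336 by limma). This call was lost in 10 of 16 alternatives, among them rank by fold enrichment (adjusted p = 0.0884 by limma), replicates 1 and 2 alone (0.448) and the fits without P300KO replicate 1, 3 or 4 or WT replicate 2, 3 or 4 (0.0525 to 0.0799). It was at 70.2, 84.0, 88.1 and 87.4 in TET2KO and 65.3, 64.7, 76.8 and 78.1 in P300KO_TET2KO (−0.711, SE 0.152, adjusted p = 0.101 by limma). The interaction was not called at either region (adjusted p = 0.937 and 0.970 by limma), so the difference on the Tet2-null background is not shown to be smaller.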

How the data were processed

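ATAC-Seq peak lists of mouse HSPCs were used, 1 for each of 16 libraries. Per the submitters' processing notes and methods, the authors trimmed reads with cutadapt (1.9.1), aligned them to mm10 with Bowtie2 (2.2.6), removed duplicates, shifted reads for Tn5 and called peaks per library with MACS2 (2.1.0). The deposited lists give for each summit a fold enrichment, which is a ratio to local background, and the authors' −log10 p and −log10 q. Total read depth is unknown from peak lists, so no counting interval was possible. A peak with several summits was counted once. Regions were placed by GENCODE M21, and a gene's start region was the one within 1 kb of a protein-coding start with the highest mean WT percentile. In this mean, a WT library without a peak counted as the lowest possible.

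Of the stem and progenitor markers chosen, 1 is not reported here. The members and gene lists were chosen with earlier results of these data known. Named were the start region and leading distal region of each member, and called regions or otherwise the 3 lowest p of each comparison. Of the regions that met the looser presence rule, those that followed 1 deletion in both backgrounds were named. A region upstream of Pim1 and a further one in a Stat3 intron were named as well. The others were counted but not named. Ranks were tested with limma 3.58.1 in R 4.3.3, and counts per window with an exact permutation test. The limma fit was also run on simulated data. The outcome of that run is not given here, so how small a difference could be called is not shown. Alternatives comprised other ranks, filters, windows and designs and leaving out each library, and were applied to Ccnd2, Ccnd3 and Osm after seeing the data. After removal of genotype and replicate set, libraries with the same replicate number in different genotypes correlated at −0.282 to 0.0278. Those with the other replicate number of the same set correlated at −0.294 to 0.023. The ranges were alike, and the numbers were not used to pair samples in the main fit. Removing these means pushes such correlations below 0, so they cannot exclude pairing. P values measure the spread between pools of 2 mice. Whether replicate sets are sequencing batches is not given in the sources used here.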

Additional observations from a re-analysis of the deposited data

Results flagged for a closer look

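In 3 of 80 groups of 4 libraries, over the start-region percentiles and region counts of the 10 genes, 1 library stood apart from the other 3 by Dixon's test. Chance alone flags about 1 in 20 groups of continuous values. Region counts are whole numbers, and where the other 3 libraries tie, the test flags any difference. This was so for the Stat3 and Socs3 windows, so that rate is no reference for them. The Stat3 window held 23 regions with a peak in TET2KO replicate 3 and 15 in each other TET2KO library. The Stat5a start region was at percentile 97.8 in WT replicate 2, one of the weak lists, and at 99.2 to 99.3 in the other WT libraries. The Socs3 window held 13 regions in P300KO_TET2KO replicate 3 and 14 in each other library of that genotype, a difference of 1 region. The part of list length in these values was not tested.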

How the results depend on the processing

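Calls at the 10 genes were 0 in all 4 comparisons and under every alternative in 3 of them. In P300KO against WT, 2 regions were called with regions in at least 12 of 16 lists, upstream of Pim1 and in an intron of Stat5a, 1 with percentiles among the 39310 tested regions without the normal transform, 1 with a variance trend, which was chosen after seeing the data, and 0 to 2 with a library left out, the 2 without WT replicate 2. By the 4 of 4 against 0 of 4 rule, P300KO_TET2KO against TET2KO gave 1 region among the strongest 50000 peaks, 7 by the looser rule and 0 to 4 with a library left out, the 4 without TET2KO replicate 3. P300KO against WT gave 1, 4 and 0 to 2, the 2 without WT replicate 4. TET2KO against WT gave 2 by the looser rule and 0 to 1, the 1 without WT replicate 1 or 4. P300KO_TET2KO against P300KO gave 1 with −log10 q of at least 2, 1 with peaks covering 50% of a region, 4 by the looser rule and 0 to 2, the 2 without P300KO replicate 1. Genes whose counts did not overlap numbered 0 to 1 in P300KO_TET2KO against TET2KO with a library left out, the 1 without TET2KO replicate 3, and in P300KO against WT 0 with windows of 5 kb, 0 with −log10 q of at least 2 and 0 among the strongest 50000. For P300KO_TET2KO against P300KO, the Socs3 start region turned to −0.117 by fold enrichment, and that of Socs2 to −0.127 by fold and −0.0293 in replicates 3 and 4 alone. In the same comparison the Jak2 start region moved from −0.165 to −0.454 by fold and −0.0834 in replicates 1 and 2 alone, and in these replicates that of Socs3 moved from 0.208 to 0.136 and that of Socs2 from 0.157 to 0.343. For TET2KO against WT, the Socs3 start region moved from 0.270 to 0.112 by fold, 0.121 in replicates 1 and 2 alone and 0.418 in replicates 3 and 4 alone. For the same comparison, the region between Stat5b and Stat5a moved from 0.384 to 0.198 with regions in at least 12 of 16 lists and 0.244 without WT replicate 1. For P300KO against WT, the second Jak1 intron region moved from 0.976 to 0.516 with regions in at least 12 lists, 1.51 in replicates 1 and 2 alone and 0.440 in replicates 3 and 4 alone, and the Mapkapk3 promoter from 0.454 to 0.258 in replicates 1 and 2 alone. None of these differences was called under any of these settings. Within 100 bp of the summit, the Stat palindrome was found in 0 of 31 kinase and Stat regions (0%), 8 of 28 feedback-gene regions (28.6%), of which 2 of 11 promoters, and 4.74% of all regions. The cause of these changes was not tested. With the replicate number as a block, calls at the 10 genes were again 0 in each comparison, the Stat3 count gave p = 0.125 by the exact permutation test, the smallest that 16 swaps allow, and the calls at Ccnd2 and Ccnd3 held (adjusted p of 0.0353 and 0.0328 by limma). The block moved the calls over all regions to 31 in P300KO_TET2KO against TET2KO, 93 in P300KO against WT, 0 in TET2KO against WT and 49 in P300KO_TET2KO against P300KO. Without it these calls were 52, 199, 2 and 59 in the same order and ranged over alternatives from 0 to 198, 0 to 394, 0 to 8 and 0 to 175, with 0 in replicates 1 and 2 alone. Ranks within lists cannot show changes common to all regions, and weak WT lists limit every comparison with WT.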

Other observations

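Oncostatin M (Osm), a cytokine gene that Stat5 switches on, had the lowest p of the 29 further pathway genes on loss of p300 in Tet2-null cells. The region was chosen after its values were seen. It lies 3.61 kb upstream of an Osm start (chr11:4232609-4233021) and was at percentiles of 81.5, 60.9, 60.7 and 65.5 in WT, 44.0, 34.5, 51.6 and 55.4 in P300KO, 56.3, 62.4, 59.0 and 42.0 in TET2KO, and 17.1, 6.35, 33.9 and 18.4 in P300KO_TET2KO. All P300KO_TET2KO libraries lay below all libraries of the other genotypes. The difference between P300KO_TET2KO and TET2KO was −1.51 (SE 0.287) in normal scores of ranks retaken among the 39310 regions with a peak in all 16 libraries, at an adjusted p of 0.0636 by limma. It was called in 2 of 16 alternatives (0.0319 with regions in at least 12 lists, 0.0364 with a variance trend) and had an adjusted p of 0.791 with percentiles among those 39310 regions in place of normal scores, a scale other than that of the percentiles above, which rank all regions of a list. The interaction had an adjusted p of 0.943.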
